A study of Homo sapiens with 60 samples.

Results

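The comparison set cultures given Yijung-tang at a medium dose of 100 µg/mL (3 libraries) against cultures given the same extract at a low dose of 20 µg/mL (3 libraries), so 6 of the 60 libraries of the series were members. They were chosen by their labels alone, and no vehicle library entered the contrast. All 6 were RNA-seq libraries of A549, an established human lung adenocarcinoma line, taken at 24 h in serum-containing medium. Yijung-tang is a mixture of medicinal herbs used in Korean medicine for digestive complaints, given here as a hot water extract whose constituents the labels do not name. The series also held Yijung-tang at a high dose of 500 µg/mL, Banhasasim-tang (a further herbal mixture) at the same 3 doses, single-herb water extracts called here Citri, Cimicifugae, Bupleuri and Aconiti, and DMSO vehicle. Medium and low dose shared a set number in their labels and each group had replicates 1 to 3. The labels do not say that replicates came from separate cultures, and the p-values then rest on a spread among libraries that may be technical.

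Several of the gene groups described below are fast sensors of cell state. Immediate-early genes such as FOS, FOSB and EGR1 encode transcription factors that growth factor signalling through ERK, and many stresses, switch on within minutes without new protein synthesis; serum response factor acts on their promoters at CArG boxes, and ERK also induces the phosphatases and Sprouty proteins that shut it off. The integrated stress response works differently: phosphorylation of the initiation factor eIF2 favours translation of ATF4, which with CHOP (gene DDIT3) turns on genes for amino acid supply through C/EBP-ATF composite elements. A549 cells also keep a liver-like secretory programme, with fibrinogen and complement made under HNF and interleukin-6 control.

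Promoters of 4 genes on which the results turn are shown first, because each holds an element named in that background. Each is a RefSeq window of 300 bases (250 before and 50 after the RefSeq start, GRCh38.p14), 5′ to 3′ in the direction of the gene. EGR1 lies at chr5:138465229-138465528 on the plus strand and its capitals mark 2 CArG boxes. ASNS (chr7:97872359-97872658, minus strand), CHAC1 (chr15:40953221-40953520, plus strand) and ATF3 (chr1:212565157-212565456, plus strand) have capitals at a match to the composite element TGATGNAA, in CHAC1 on the opposite strand.
EGR1: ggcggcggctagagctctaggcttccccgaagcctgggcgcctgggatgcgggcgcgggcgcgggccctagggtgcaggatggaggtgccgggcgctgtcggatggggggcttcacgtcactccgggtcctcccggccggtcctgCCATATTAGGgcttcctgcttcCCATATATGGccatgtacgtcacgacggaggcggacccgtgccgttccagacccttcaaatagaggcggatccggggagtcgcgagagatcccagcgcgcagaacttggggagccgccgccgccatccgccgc
ASNS: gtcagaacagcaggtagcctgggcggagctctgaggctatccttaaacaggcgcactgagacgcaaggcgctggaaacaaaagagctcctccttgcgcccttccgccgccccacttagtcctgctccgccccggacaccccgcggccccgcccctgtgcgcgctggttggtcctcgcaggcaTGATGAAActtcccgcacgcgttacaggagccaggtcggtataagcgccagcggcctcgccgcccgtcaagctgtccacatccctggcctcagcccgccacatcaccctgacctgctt
CHAC1: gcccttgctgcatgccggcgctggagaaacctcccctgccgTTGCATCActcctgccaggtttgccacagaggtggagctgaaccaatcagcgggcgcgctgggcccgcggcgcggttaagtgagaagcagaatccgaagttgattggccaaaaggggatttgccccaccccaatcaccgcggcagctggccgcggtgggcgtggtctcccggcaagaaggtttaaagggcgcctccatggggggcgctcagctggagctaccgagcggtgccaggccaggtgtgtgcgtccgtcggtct
ATF3: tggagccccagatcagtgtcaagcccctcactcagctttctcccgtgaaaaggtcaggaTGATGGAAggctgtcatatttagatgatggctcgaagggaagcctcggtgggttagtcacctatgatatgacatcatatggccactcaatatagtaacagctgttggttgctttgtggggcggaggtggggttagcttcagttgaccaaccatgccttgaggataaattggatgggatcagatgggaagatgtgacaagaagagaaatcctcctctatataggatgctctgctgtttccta
Both strands were searched, in 1 window per gene symbol, so any other start site of a gene was not covered. TGATGNAA occurred in 3.67% of the 27305 RefSeq windows, in 3 of 16 windows of the ATF4-CHOP list (ATF3, CHAC1 and FGF21) and in 2 of 10 windows of the serine and asparagine synthesis list (ASNS and MTHFD1L). The CArG box occurred in 1.29% of all windows and in 2 of 12 windows of the AP-1 and EGR list (EGR1 and SRF). The full cyclic AMP response element TGACGTCA occurred in 1.98% of all windows. It stood in 2 of 12 windows of the AP-1 and EGR list (JUND and MAFF), 1 of 16 of the ATF4-CHOP list (PPP1R15A) and 0 of 10 of the serine list. Neither of the 2 NR4A windows held any of the 3 motifs. A match is a match of letters only.

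Totals of gene-assigned counts ran from 19733246 to 29715907 in the 6 libraries, within the 17793655 to 30188211 of the whole series. The 10 genes listed for the epithelial identity of A549 summed to 16240 to 19280 CPM at medium dose and 17670 to 19680 CPM at low dose. Keratins and the enzymes ALDH1A1, AKR1B10 and AKR1C1 carried that sum, so it does not follow the scarcer epithelial markers. CDH1 had 13.1 to 16.8 CPM at medium and 27.6 to 28.6 CPM at low dose, and EPCAM 3.19 to 4.56 and 4.23 to 5.28 CPM. SFTPB stayed below 1 CPM. CPM is counts per 1e6 counts, taken on total counts for the markers of this paragraph and on TMM-scaled library sizes elsewhere. Of 14 genes listed as markers of other cell types or as lost in this line, 11 stayed below 1 CPM. PTPRC, CD3E, DCN and CDKN2A were at 0 in all 6 libraries, of which CDKN2A is not a marker of a cell type. The sum of that list was 26.02 to 26.8 CPM at medium dose and 36.87 to 38.18 CPM at low dose, carried by CD68, COL1A1 and COL3A1. CD68, a lysosomal protein of macrophages, had 11.53 to 13.65 CPM at medium and 5.84 to 6.93 CPM at low dose and rose (adjusted p = 0.00614), while the leukocyte gene PTPRC was at 0. Mitochondrially encoded genes took 6.32%, 7.57% and 8.97% of counts at medium dose and 7.70%, 9.82% and 8.95% at low dose. Long against short transcripts, as a balance on the log2 scale, stood at 3.97, 4.12 and 4.17 at medium dose and 3.98, 4.01 and 4.08 at low dose, so replicate 1 had the lowest balance in both groups. Medium replicate 1 of Citri, a library of the shared fit, stood apart at 3.35, and without it 1382 genes were called in the comparison in place of 1090. The part of either measure in the results was not tested beyond the alternatives given at the end. A CPM is a share of the RNA sequenced, and in bulk samples fewer cells of a kind and less RNA per cell cannot be told apart.

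The step between the 2 lower doses changed 1090 of 17268 genes tested at an adjusted p under 0.05 (edgeR quasi-likelihood test, Benjamini-Hochberg), or 6.31% of them. Of these, 571 (3.31%) were higher and 519 (3.01%) lower at medium dose. Most changes were modest: the median log2 fold was 0.371 among the higher genes and -0.508 among the lower ones, and 38 higher and 67 lower genes reached 1 on the log2 scale. Protein-coding genes made up 1041 of the calls (7.63% of those tested), against 27 of 769 lincRNAs (3.51%) and 6 of 1096 antisense genes (0.547%); the strand setting of the counting is not given, so reads of an antisense gene and its partner cannot be told apart. In 3680 genes (21.3%) the 3 medium libraries did not overlap the 3 low ones. Low dose against vehicle called 2 genes (0.0116%), SFT2D2 and LINC02977, both lower at low dose, with 614 genes at an unadjusted p under 0.05; the vehicle is 0.1% DMSO in the sample labels and 2% in the design text, a difference that was not settled. The count of 1090 was 440 when only the 6 libraries were fitted and 2978 once the length balance was a covariate.

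**Figure D1:**
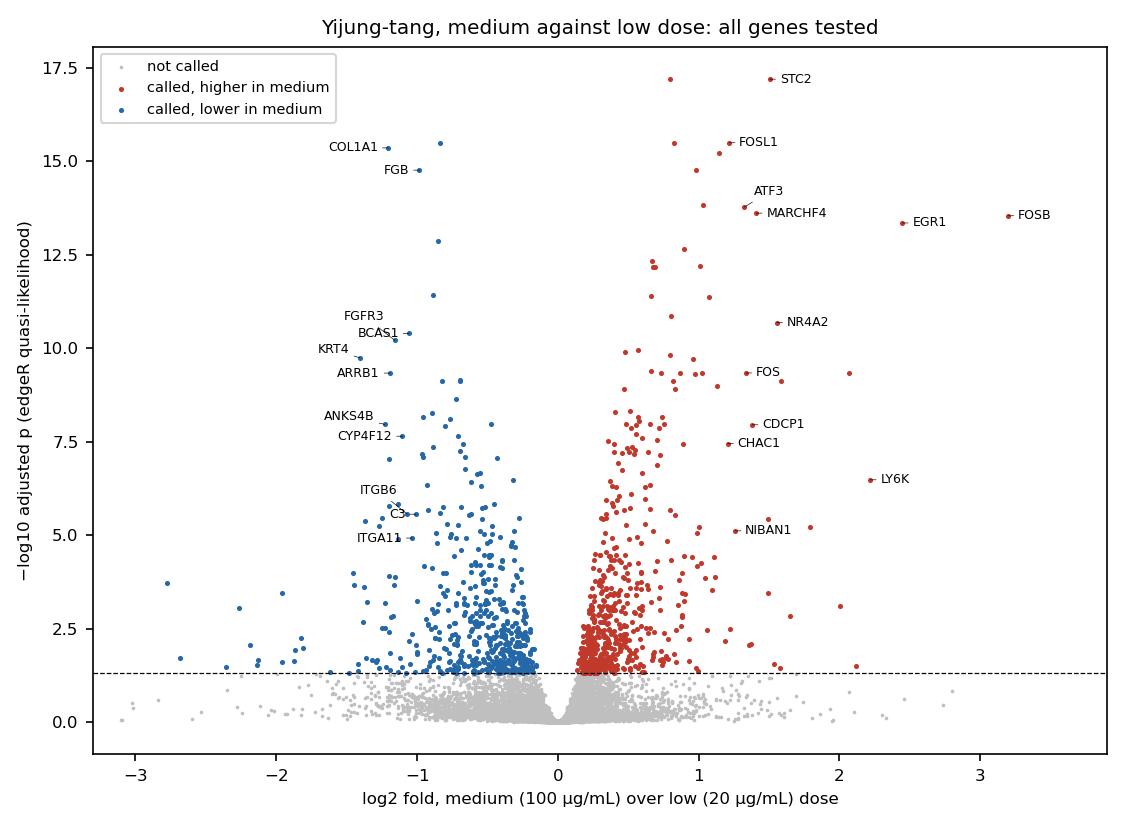
Tested genes (37 uncalled genes beyond the x axis not drawn) by log2 fold of medium over low dose (x axis) and −log10 of the adjusted p (y axis, edgeR quasi-likelihood test), with 23 of the largest changes among genes of at least 5 CPM and no overlap labelled and called genes in red (571 higher) or blue (519 lower). FOSB, EGR1 and LY6K reach furthest to the right among the labelled genes, and KRT4 furthest to the left.

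Immediate-early transcription factors gave the 2 largest rises, FOSB and EGR1, among genes of at least 5 CPM in the medium libraries whose groups did not overlap. FOSB (chr19:45467995-45475179, plus strand, GRCh38), an AP-1 subunit, had 11.3, 12.8 and 16.1 CPM in the medium libraries, against 1.44, 1.90 and 1.00 CPM in the low ones. Every medium library was thus far above every low one, and the log2 fold was 3.20 ± 0.23 (SE; adjusted p = 2.86e-14). EGR1 (chr5:138465490-138469315, plus strand), the zinc finger factor whose promoter is printed above, had 6.43, 7.79 and 9.52 CPM at medium and 1.16, 1.57 and 1.61 CPM at low dose, a log2 fold of 2.45 ± 0.18 (adjusted p = 4.46e-14). FOS had 11.1, 9.46 and 10.7 CPM at medium dose against 4.53, 3.77 and 4.10 CPM at low dose. Its log2 fold was 1.34 ± 0.13, again with no overlap. FOSL1, the Fos-family member that outlasts FOS after a stimulus, averaged 66.2 ± 7.49 CPM at medium and 28.4 ± 1.84 CPM at low dose (SD, n = 3 each), a log2 fold of 1.22.

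Of 16 genes on the AP-1 and EGR list, 14 passed the filter on low counts, 9 of those rose and 0 fell, with a median log2 fold of 0.362 over the 14, beside 3.31% of all genes called higher and a median of 0.0019 over all genes. MYC rose by 0.37 (adjusted p = 3.56e-07), with 176, 188 and 194 CPM at medium and 138, 148 and 146 CPM at low dose. JUN, the usual dimer partner of the Fos proteins, rose by 0.33, to 43.4 ± 1.32 CPM against 34.5 ± 1.09 CPM at low dose. JUNB (log2 fold -0.18) and JUND (-0.34), which make up other AP-1 dimers, did not pass the test. JUND passed only with the length balance as a covariate (edgeR adjusted p = 0.0133). The largest folds of the list were thus those of FOSB, EGR1 and FOS.

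All 3 NR4A orphan nuclear receptors rose. These factors bind DNA without a known hormone and are themselves induced within hours by growth factors and cyclic AMP. NR4A1 had 86.7, 85.9 and 87.5 CPM at medium and 37.5, 41.5 and 38.9 CPM at low dose, a log2 fold of 1.14 ± 0.07 (adjusted p = 6.01e-16). NR4A2 had 11.3, 10.8 and 11.8 CPM at medium and 3.76, 4.13 and 3.61 CPM at low dose, a log2 fold of 1.56. NR4A3 rose least, by 0.66, with 11.04, 12.2 and 13.3 CPM against 7.55, 7.60 and 7.87 CPM.

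The feedback genes of ERK signalling rose as well, 10 of 16 tested with 0 fallen and a median log2 fold of 0.358. Over all genes 3.31% were called higher and 3.01% lower, shares that stand beside each later list count of this comparison too. DUSP4, a nuclear phosphatase of MAP kinases, was among the 2 genes with the smallest adjusted p of the comparison (6.32e-18, shared with STC2). It had 220.2, 232 and 238 CPM at medium and 131, 134 and 132 CPM at low dose, a log2 fold of 0.80 ± 0.04. DUSP6, the cytoplasmic ERK phosphatase, rose by 0.71, PHLDA1 by 0.66, DUSP5 by 0.65 and SPRY2, a Sprouty inhibitor of receptor signalling, by 0.59. DUSP1, which acts on stress kinases too, rose by 0.49, to 208 ± 24.0 CPM against 148 ± 9.75 CPM. The ETS factor ETV5 rose by 0.33. SPRY4 had a log2 fold of 0.33 but overlapping groups, and SPRED1 (0.13), SPRED2 (0.14), SPRY1 (-0.04), ETV1 (-0.07) and EPHA4 (-0.55) did not pass. Krüppel-like factors, zinc finger factors of which several respond early, moved partly with them: KLF11 (0.59), KLF4 (0.48), KLF10 (0.41) and KLF6 (0.28) rose, 4 of 10 tested. KLF9 fell by 0.49 (adjusted p = 0.0195), a call lost without medium replicate 1 (adjusted p = 0.176), low replicate 2 (0.123) or medium replicate 3 (0.0856).

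The ATF4-CHOP stress list was the one with the most members risen, 14 of 16 tested (17 listed), with 0 fallen and a median log2 fold of 0.766. STC2 (chr5:173314713-173329503, minus strand), a secreted glycoprotein induced by this pathway, had 83.4, 89.1 and 86.0 CPM at medium and 32.3, 30.9 and 27.8 CPM at low dose. The groups were far apart, with a log2 fold of 1.51 ± 0.08 (adjusted p = 6.32e-18). ATF3, a repressor that ATF4 induces and that is also an immediate-early gene, had 24.0, 21.6 and 19.7 CPM at medium and 9.69, 9.21 and 7.15 CPM at low dose, a log2 fold of 1.32. CHAC1, which degrades glutathione, had 16.8, 12.7 and 11.9 CPM at medium and 6.57, 6.25 and 5.18 CPM at low dose, a log2 fold of 1.21 ± 0.14. DDIT3 itself, encoding CHOP, averaged 19.7 ± 1.74 CPM against 10.6 ± 0.861 CPM, a log2 fold of 0.89.

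Most other regulators of the list followed. NIBAN1 rose by 1.26, PPP1R15A, the GADD34 subunit that reverses eIF2 phosphorylation, by 0.98, TRIB3, a pseudokinase that restrains ATF4, by 0.89, and GDF15, a secreted stress cytokine, by 0.80. SESN2, a leucine sensor upstream of mTORC1, rose by 0.73. The message of ATF4 rose by 0.35 (adjusted p = 0.00971), a call that was lost without medium replicate 1 (adjusted p = 0.0944) and without low replicate 2 (0.0839). ATF5 (log2 fold -0.09) and CEBPB (-0.09), also bZIP factors, did not pass, and FGF21 was too low to be tested. Chaperones and folding enzymes of the endoplasmic reticulum did not move with this list: of 21 tested, HERPUD1 alone rose and 4 fell, among them PDIA4 (-0.30), PDIA3 (-0.26) and HSP90B1 (-0.25), and HSPA5, the chaperone BiP, had 597 ± 29.6 CPM at medium and 632 ± 28.0 CPM at low dose (log2 fold -0.08, adjusted p = 0.392). HERPUD1, of protein disposal there, had a log2 fold of 0.27 (adjusted p = 0.0251), a call lost without medium replicate 1 (0.118) or 2 (0.13) and without low replicate 2 (0.0662) or 3 (0.152). Fitted on the 6 libraries alone, 0 of the 4 falls passed, and 440 genes were called in that fit. In the shared fit 3.31% of all genes were called higher and 3.01% lower.

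Enzymes that make serine, one-carbon units, asparagine and proline rose in 9 of 14 tested, with 0 fallen and a median log2 fold of 0.437. ASNS, asparagine synthetase, had 248, 222 and 203 CPM at medium and 139.9, 127 and 119.7 CPM at low dose, a log2 fold of 0.80 ± 0.07 (adjusted p = 1.35e-11). Within each group replicate 1 was highest. MTHFD2, the mitochondrial folate enzyme, rose by 0.69 to 489 ± 34.0 CPM against 304 ± 16.9 CPM, and PSAT1, of serine synthesis, by 0.67 to 573 ± 55.2 CPM against 359 ± 28.7 CPM. CBS, which starts transsulfuration, rose by 0.47 and PCK2, mitochondrial PEP carboxykinase, by 0.55. With only the 6 libraries fitted 5 members of the list rose, and PCK2 did not pass (adjusted p = 0.0677). Amino acid transporters rose in 5 of 12 tested with 0 fallen: the glycine carrier SLC6A9 by 0.82, the glutamine carriers SLC38A2 by 0.47 and SLC1A5 by 0.36, SLC1A4, of serine and alanine, by 0.40, and SLC43A1, of large neutral amino acids, by 0.48, a call lost without medium replicate 1 (adjusted p = 0.0538) or low replicate 2 (0.093). In edgeR with only the 6 libraries SLC1A5 (adjusted p = 0.0815) and SLC43A1 (0.101) did not pass. With the 9 Yijung-tang libraries they did not pass either (0.0597 and 0.0733). SLC7A11, the cystine carrier, had a log2 fold of 0.02 at 495 CPM against 487 CPM. SLC7A5, the leucine carrier, had one of 0.04, and neither SLC7A11 nor SLC7A5 passed the test.

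**Figure D2:**
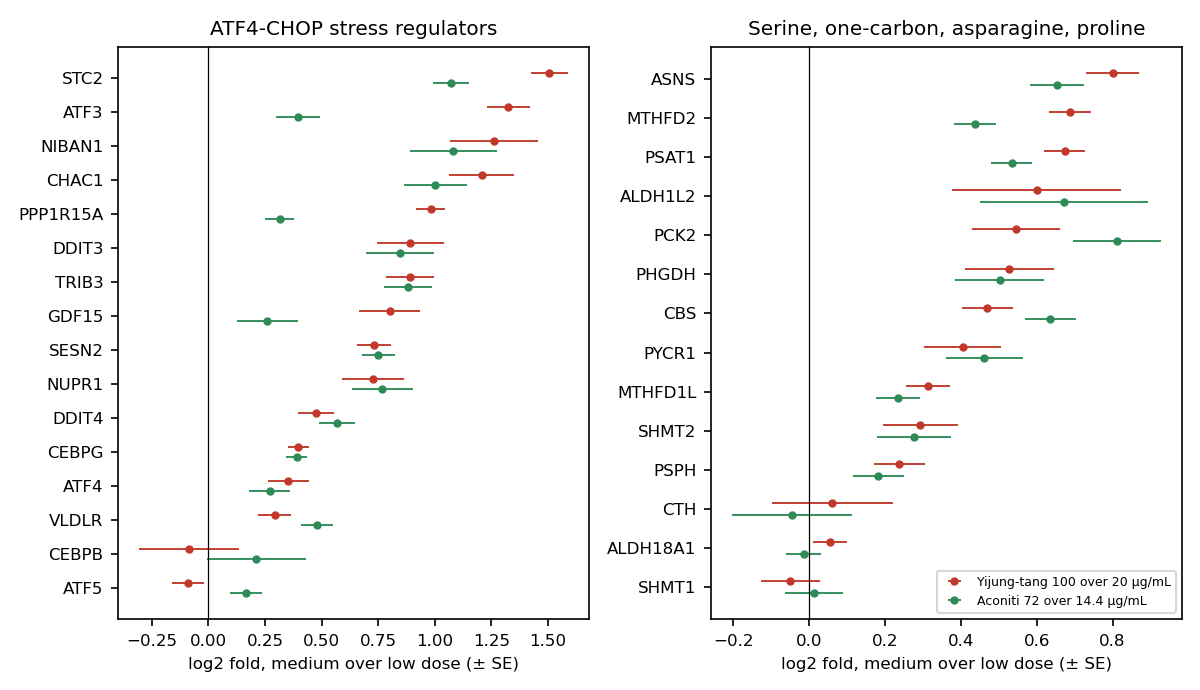
Fitted log2 fold of medium over low dose (x axis, bars ± SE) for each tested member of the ATF4-CHOP list (left) and of the serine, asparagine and proline synthesis list (right), in Yijung-tang (red, upper point) and in Aconiti (green, lower point), whose doses differ. On the left STC2 is highest in Yijung-tang at 1.51, with 1.07 in Aconiti, while NIBAN1 stands at 1.26 in Yijung-tang and 1.08 in Aconiti and ATF3 at 1.32 and 0.40.

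Signals that attract neutrophils rose, from low levels for most of them. CXCL8, interleukin-8, had 5.00, 5.08 and 4.09 CPM at medium and 1.09, 1.10 and 1.20 CPM at low dose, a log2 fold of 2.06 ± 0.21 (adjusted p = 4.6e-10). CXCL5 was the most abundant, with 151, 153 and 145 CPM at medium and 85.4, 84.6 and 83.1 CPM at low dose, and a log2 fold of 0.83 ± 0.05. CXCL2 rose by 1.11 and CXCL1 by 1.06, at 6.44 ± 1.31 and 1.96 ± 0.254 CPM at medium against 2.98 ± 0.331 and 0.927 ± 0.338 CPM at low dose; their sequences are alike, so reads may be split between them. In all, 4 of 5 tested chemokines of the list rose, but CXCL1 did not pass in edgeR with only the 6 libraries (adjusted p = 0.0894). Of 18 NF-kB genes, 4 rose: BIRC3, an inhibitor of apoptosis, by 0.75, RELB by 0.67, NFKB2, its partner in the non-canonical pathway, by 0.66, and RELA by 0.20, a call lost with no filter on low counts (adjusted p = 0.23), with only the 6 libraries (0.123) and with the 9 Yijung-tang libraries (0.106). The feedback inhibitors NFKBIA (0.18) and TNFAIP3 (0.32) did not pass. NFKBIA passed only with the length balance as a covariate (edgeR adjusted p = 0.000726). PTGS2, the inducible cyclooxygenase, had 37.2, 38.8 and 39.5 CPM at medium and 18.2, 20.0 and 18.6 CPM at low dose, a log2 fold of 1.02 ± 0.10.

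Secreted liver-type proteins were among the falls. All 3 fibrinogen chains fell, and 8 of 13 tested members of the fibrinogen, complement and acute phase list did so with 2 risen and a median log2 fold of -0.695, beside 3.01% of all genes called lower. FGB (chr4:154562956-154571086, plus strand), the beta chain, had 92.7, 82.3 and 84.4 CPM at medium and 179, 165 and 169 CPM at low dose. No library overlapped, and the log2 fold was -0.98 ± 0.06 (adjusted p = 1.72e-15). FGG, the gamma chain, fell by 0.77 and FGA, the alpha chain, by 0.70. C3, the central complement component, had 15.98, 15.5 and 15.9 CPM at medium and 32.9, 31.0 and 31.4 CPM at low dose, a log2 fold of -1.01. The members that rose were the membrane inhibitors of complement, CD55 by 0.56 and CD59 by 0.39; CD59 did not pass with only the 6 libraries (adjusted p = 0.0847) or the 9 Yijung-tang libraries (0.0879). SAA1, SAA2 and HP were too low to be tested.

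Some matrix and adhesion genes fell too. COL1A1, the alpha 1 chain of type I collagen, had 12.3, 12.3 and 13.0 CPM at medium and 29.9, 27.5 and 28.99 CPM at low dose, a log2 fold of -1.21 ± 0.08 (adjusted p = 4.37e-16). It also stands on the list of markers of other cell types. Of the matrix genes there, DCN was at 0 in all 6 libraries. COL3A1 had 1.06 to 1.61 CPM at medium and 1.26 to 2.10 CPM at low dose, on total counts. COL5A1 fell by 0.80 and COL4A1 by 0.49, and the integrin subunits ITGB6 by 1.07 and ITGA11 by 1.04. In the list of integrins, laminins and collagens 4 of 22 fell, and 2 rose, among them ITGA3, of epithelial adhesion, by 0.40. Over all genes 3.01% were called lower and 3.31% higher. CDH1, E-cadherin, had 13.5, 14.1 and 16.5 CPM at medium and 28.7, 28.1 and 26.9 CPM at low dose, a log2 fold of -0.93 ± 0.13. The epithelial and mesenchymal list did not move one way: with CDH1 fell the mesenchymal genes SPARC (-0.83), FN1 (-0.75) and SNAI1 (-0.56) and the claudin CLDN2 (-0.40), 5 of 15 tested, and 2 rose, CLDN1 by 0.34 and OCLN by 0.32, both of tight junctions; the list had 1 risen without medium replicate 2, with only the 6 or the 9 Yijung-tang libraries, or with no filter on low counts, and 4 with the length covariate. VIM had a log2 fold of 0.21 (adjusted p = 0.0787, past the threshold in 5 of 16 alternatives) and CDH2 of -0.17, neither passing. CDH2 passed only with the length balance as a covariate (edgeR adjusted p = 0.00239).

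Other large changes fell outside these groups. LY6K, a GPI-anchored surface protein, had 6.36, 5.604 and 4.68 CPM at medium and 0.913, 1.39 and 1.28 CPM at low dose, a log2 fold of 2.22 ± 0.29. MARCHF4, a membrane ubiquitin ligase, had 33.5, 30.8 and 38.2 CPM against 11.8, 14.0 and 12.6 CPM, and CDCP1, a surface substrate of SRC kinases, rose by 1.38. KRT4, a keratin of squamous epithelium, fell most among the named genes, with 12.2, 10.8 and 9.27 CPM at medium and 34.3, 24.2 and 27.5 CPM at low dose (log2 fold -1.41 ± 0.14). ARRB1, beta-arrestin 1, fell by 1.19, ANKS4B, a microvillus scaffold, by 1.23, BCAS1 by 1.06, and CYP4F12, a fatty acid hydroxylase with close paralogs that may share its reads, by 1.11. Receptor kinases were among the falls: FGFR3 fell by 1.16, ERBB3 by 0.89, FGFR4 by 0.52 and ERBB2 by 0.30, while AXL rose by 0.47, to 287 ± 6.91 CPM against 206 ± 5.56 CPM. EGFR had a log2 fold of 0.46 but did not pass (adjusted p = 0.343).

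Smaller groups moved in part. TSC22D3, the GILZ gene induced by glucocorticoids and also by other signals, had 22.0, 19.8 and 16.3 CPM at medium and 9.66, 9.98 and 7.99 CPM at low dose (log2 fold 1.08), and 5 of 12 glucocorticoid-induced genes rose, with 1 fallen, KLF9, whose call was lost without any of 3 single libraries, as given above. FKBP5 (-0.02) and PER1 (-0.09), the usual sensors of that receptor, did not pass. GREM1 and BMPER, secreted antagonists of BMP, rose by 1.13 and 0.59. SQSTM1, the autophagy receptor p62, rose by 0.70 and the cathepsin CTSL by 0.62; the lysosome and autophagy list had 5 of 21 risen, and 3 without medium replicate 1, medium replicate 2, low replicate 2 or low replicate 3. Ribosome biogenesis factors had 9 of 26 risen, but 5 without low replicate 2, 1 with only the 6 libraries fitted, 3 with no filter on low counts or with the 9 Yijung-tang libraries, and 16 once the length balance was a covariate. H19, an imprinted long RNA, fell by 0.96, to 46.6 ± 4.37 CPM against 90.6 ± 4.88 CPM. TIPARP, which the aryl hydrocarbon receptor induces, rose by 0.59, while CYP1A1 and CYP1B1, the classic genes of that receptor, had log2 folds of 0.16 and 0.06 and did not pass.

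**Figure D3:**
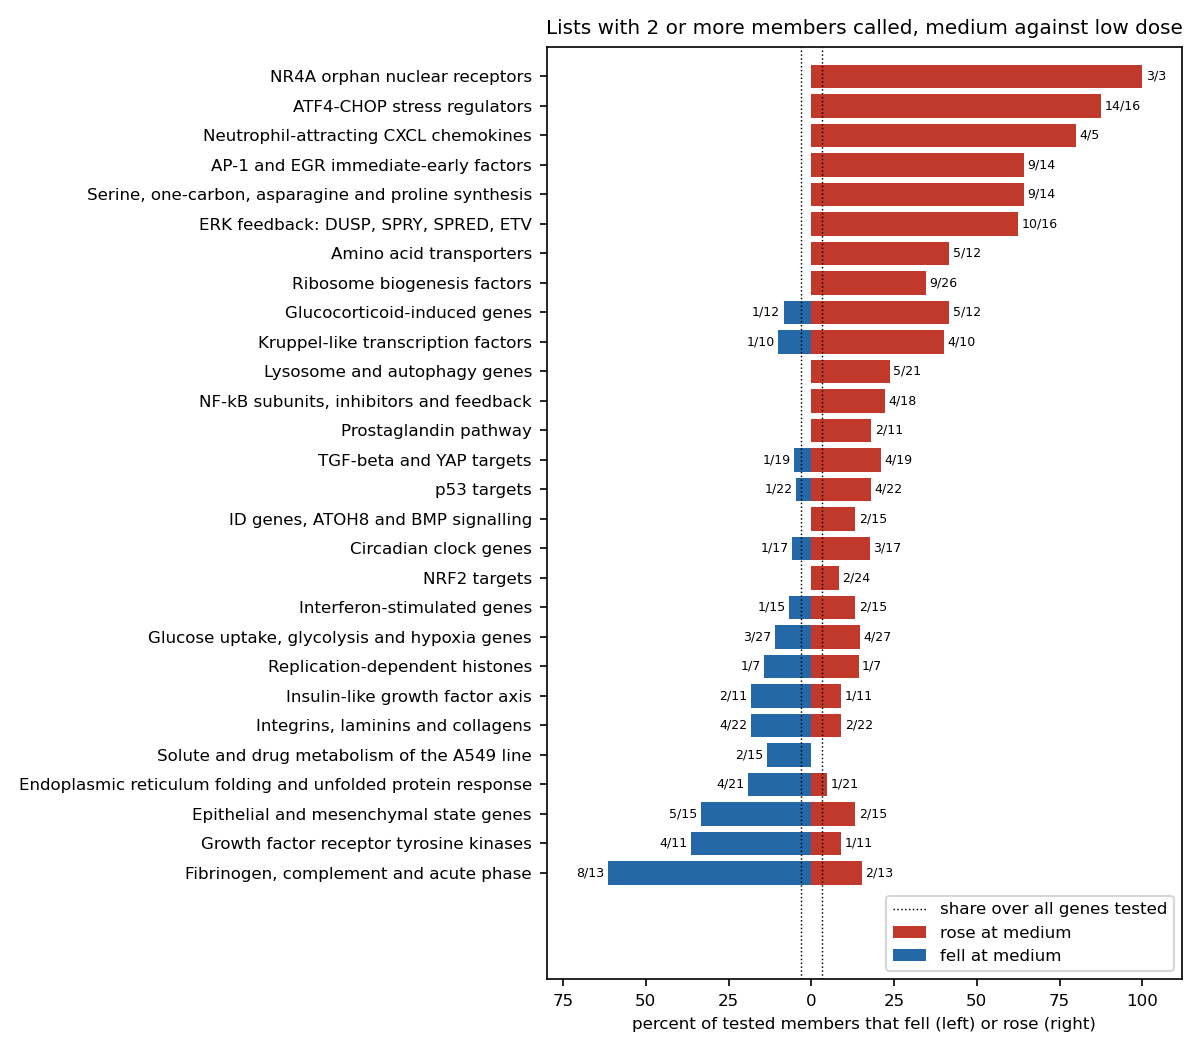
Percent of tested members that rose (red, right) or fell (blue, left) at medium against low dose in each list with 2 or more members called, with counts at the bar ends and dotted lines at the shares over all genes (3.31% higher, 3.01% lower). The NR4A, ATF4-CHOP and chemokine lists stand at the top, and fibrinogen and complement at the bottom with 8 of 13 fallen.

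Several growth and housekeeping lists held few or no calls, beside 6.31% of all genes called in either direction. None of 31 DNA replication genes, 43 cytosolic ribosomal proteins, 30 mitochondrial ribosomal proteins, 28 proteasome subunits or 8 keratins of the line passed the edgeR test. At an unadjusted p under 0.05 there were 4, 0, 2, 0 and 0 of these, and DESeq2 called 3 of the replication genes and 0 in the other lists. Log2 folds were above 0 in 43 of 43 cytosolic (median 0.103) and 27 of 30 mitochondrial ribosomal proteins (0.116), beside a median of 0.0019 over all genes. They were above 0 in 18 of 31 replication genes, 21 of 28 proteasome subunits and 5 of 8 keratins. KRT4, whose fall is given above, is not on that keratin list. Of 26 mitosis genes 1 fell, TOP2A, a topoisomerase, with a log2 fold of -0.22 (adjusted p = 0.0449), beside 3.01% of all genes; that call was lost in each of the 6 fits without 1 library. With the length balance as a covariate 8 mitosis genes were called lower, and 19 of the cytosolic and 11 of the mitochondrial ribosomal proteins higher. CDKN1A, the p53 target p21, had 96.0 CPM in both groups (SD 8.38 at medium and 10.2 at low dose; log2 fold 0.00). NQO1, the marker of NRF2, had 1665 ± 228 CPM against 1635 ± 181 CPM (0.03), HMGCS1, of cholesterol synthesis, 205 ± 16.2 CPM against 206 ± 6.38 CPM (-0.01), and ID4, a BMP target, a log2 fold of 0.01. The 12S ribosomal RNA MT-RNR1 had 1639 ± 285 CPM against 1672 ± 372 CPM. None of these 5 passed the test. Some of their lists did hold calls, beside 3.31% of all genes higher and 3.01% lower. Of 22 p53 targets 4 rose, among them TNFRSF10B by 0.42, and 1 fell, with 0 to 1 fallen without single libraries. Of 24 NRF2 targets 2 rose, HMOX1 by 0.35 and TXNRD1 by 0.34. In edgeR HMOX1 did not pass without medium replicate 1 (adjusted p = 0.0667), nor TXNRD1 with only the 6 libraries (0.147).

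The same step from 20 to 100 µg/mL of Banhasasim-tang, with libraries of its own, called 0 of 17268 genes (edgeR, with 358 at an unadjusted p under 0.05; DESeq2 called 1). The difference between the extracts was tested directly, as the medium-over-low change of Yijung-tang minus that of Banhasasim-tang, and 371 genes (2.15%) differed, 216 (1.25%) with a higher and 155 (0.898%) with a lower change in Yijung-tang. FOSB differed by 3.39 ± 0.37 on the log2 scale (adjusted p = 1.98e-08): its levels were 13.4 ± 2.48 and 1.45 ± 0.449 CPM at medium and low Yijung-tang, and 0.972 ± 0.135 and 1.12 ± 0.219 CPM at medium and low Banhasasim-tang. LY6K differed by 2.58, EGR1 by 2.45, NR4A2 by 1.92 and STC2 by 1.46. Among the falls, KRT4 differed by -1.24, DDC, which makes dopamine and serotonin, by -1.21, ITGB6 by -1.19 and COL1A1 by -1.14. Of the ATF4-CHOP list 11 of 16 genes differed. Not every rise did: NR4A3 differed by 0.52 (adjusted p = 0.21), and CXCL1, with log2 folds of 1.06 in Yijung-tang and 0.67 in Banhasasim-tang, by 0.39 (0.81).

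Among the single herbs, medium against low dose called 1 gene for Citri (0.00579%), 2 for Cimicifugae (0.0116%; 1 higher and 1 lower, 0.00579% each) and 0 for Bupleuri (edgeR, with 309 at an unadjusted p under 0.05; DESeq2 called 0). The only gene of Citri was TUBA1B-AS1, an antisense gene, with 2262 genes at an unadjusted p under 0.05. That count rests on single libraries: it was 0 without medium replicate 1 of Citri, which stood apart in length balance, 43 without replicate 2 and 31 without replicate 3, and 11 with no filter on low counts. The genes of Cimicifugae were NR4A1, whose log2 fold there was -0.55, and CYP1B1. Aconiti called 91 genes (0.527%), 74 higher (0.429%) and 17 lower (0.0984%), between 72 and 14.4 µg/mL, doses that differ from those of Yijung-tang, so its values are only set beside them. Its 91 became 57 without Aconiti medium replicate 2, 58 without low replicate 2, 41 with only its 6 libraries fitted, 56 with no filter and 218 under the length covariate. STC2 had a log2 fold of 1.51 in Yijung-tang and 1.07 in Aconiti, CHAC1 of 1.21 and 1.00, TRIB3 of 0.89 and 0.88, ASNS of 0.80 and 0.65, and CBS of 0.47 and 0.64. FOSB had 3.20 in Yijung-tang and -0.11 in Aconiti, EGR1 2.45 and 0.02, NR4A1 1.14 and -0.35, DUSP4 0.80 and 0.04, COL1A1 -1.21 and -0.15, and MT-RNR1 -0.03 and 2.68. The ATF4-CHOP list had 14 of 16 risen in Yijung-tang and 12 in Aconiti, and the ERK feedback list 10 of 16 and 0. Whether these changes differ between the herbs was not tested.

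**Figure D4:**
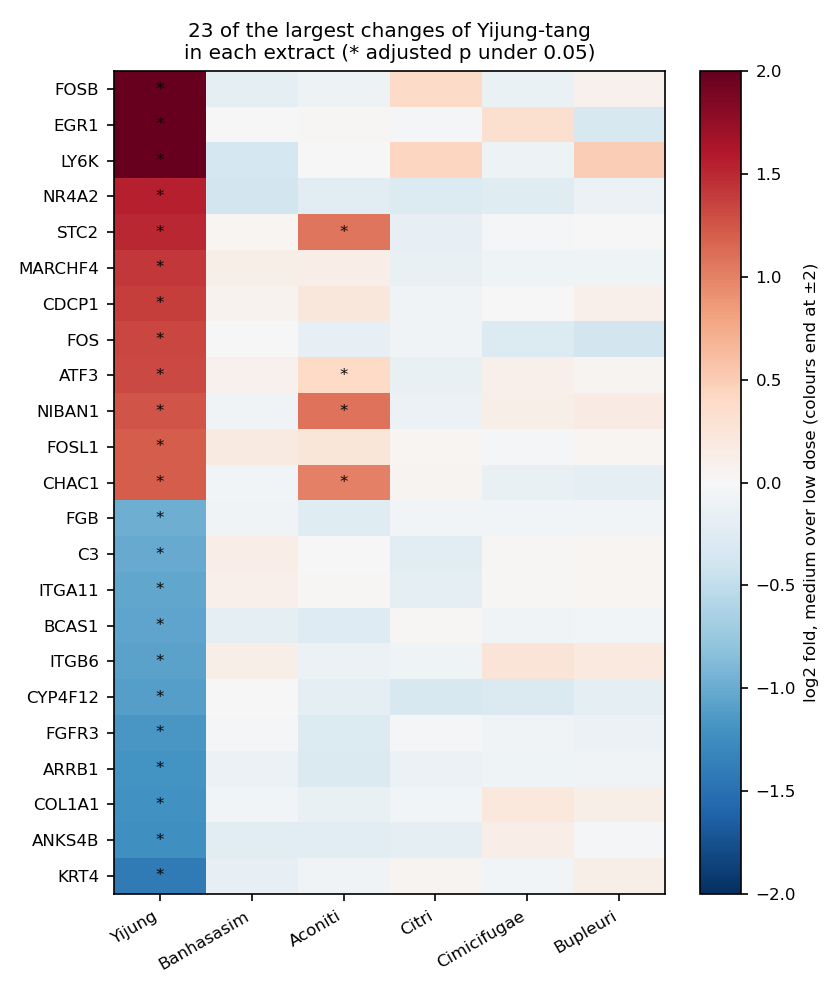
Fitted log2 fold of medium over low dose (colour) for 23 of the genes of largest change in Yijung-tang (rows) in each extract (columns, Yijung-tang at the left), with a star at an adjusted p under 0.05. Stars outside the Yijung-tang column, by which the genes were chosen, stand only in the Aconiti column, at STC2, ATF3, NIBAN1 and CHAC1.

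The next step, 500 against 100 µg/mL of Yijung-tang, called 187 genes (1.08%), 89 higher (0.515%) and 98 lower (0.568%); it shares the 3 medium libraries, so levels are given side by side. By dose from low to high, FOSB averaged 1.45, 13.4 and 4.32 CPM, NR4A1 39.3, 86.7 and 45.6 CPM and FOS 4.13, 10.4 and 4.74 CPM. High against medium, these had log2 folds of -1.64, -0.93 and -1.14. These genes, and the lists named next, were taken up for their rise in the same medium libraries. That choice favours a fall in this step, so the falls are not a separate test of a peak at 100 µg/mL. All 3 NR4A genes and 8 of 16 ATF4-CHOP genes were lower at high than at medium dose, among them STC2, with 30.3, 86.1 and 59.5 CPM by dose, and ATF3, with 8.68, 21.8 and 10.97 CPM. Other genes did not pass that step: DUSP4 had 132, 230.1 and 236 CPM, FOSL1 28.4, 66.2 and 69.9 CPM, CXCL8 1.13, 4.72 and 6.66 CPM, FGB 171, 86.4 and 74.0 CPM, and CDH1 27.9, 14.7 and 14.2 CPM. NT5E, the ecto-enzyme CD73, had log2 folds of 0.59 for medium over low and 0.73 for high over medium dose, both past the threshold. Only 9 genes were called in this step when the 6 high and medium libraries were fitted alone, and 15 with the 9 Yijung-tang libraries; without high replicate 1 there were 113 and without medium replicate 2 there were 107.

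**Figure D5:**
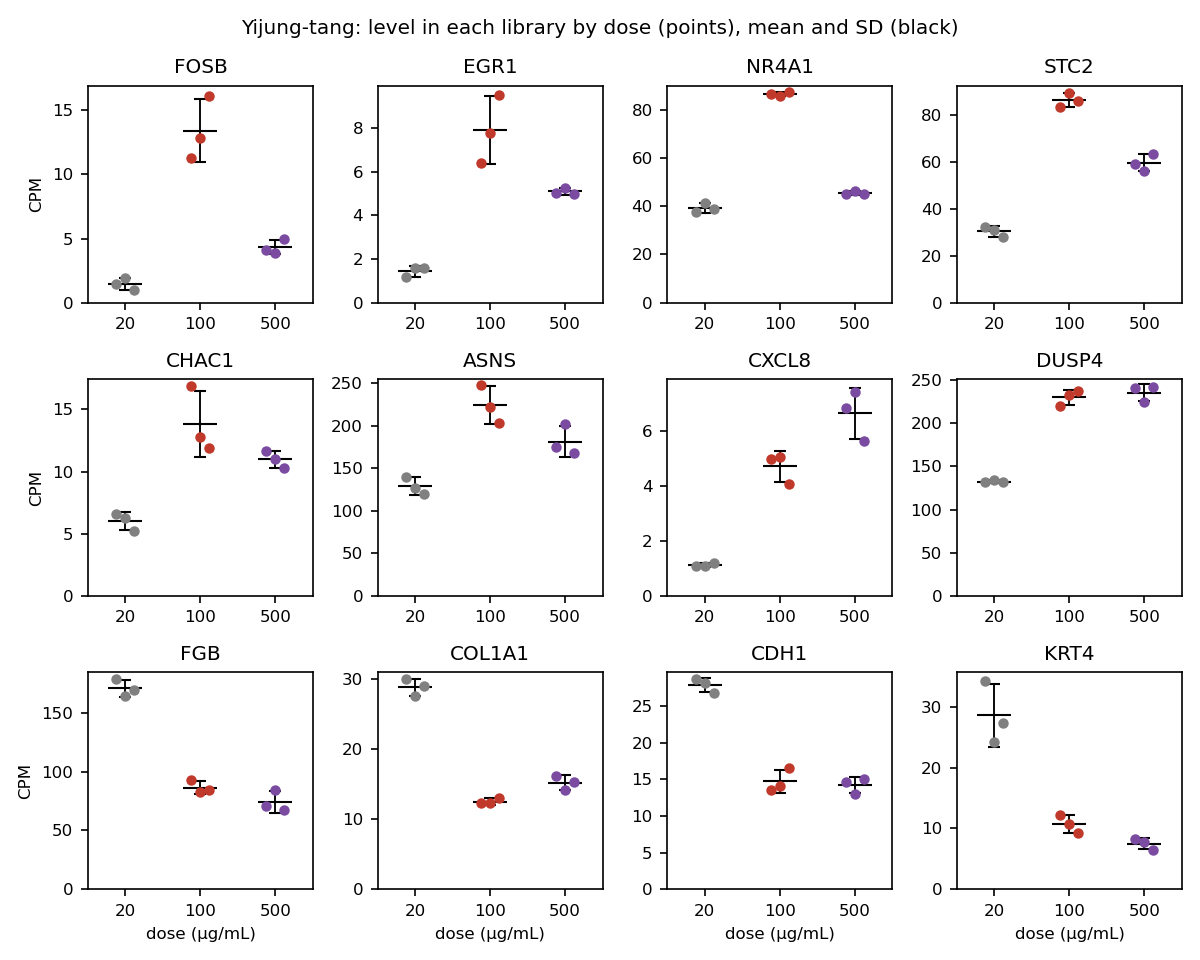
Level in CPM (y axes, from 0) in each library of Yijung-tang by dose in µg/mL (x axes), with 3 points a dose and the mean and SD in black, for 12 genes. FOSB, EGR1, NR4A1, STC2, CHAC1 and ASNS are highest at 100 µg/mL, CXCL8 is highest at 500 µg/mL, and FGB, COL1A1, CDH1 and KRT4 are lowest at 100 or 500 µg/mL.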

How the data were processed

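mRNA libraries of A549 cells were sequenced as paired 100 bp reads with a directional kit, per the labels' protocols. The submitters' processing notes name FastQC 0.11.9, Trim Galore 0.6.5, STAR 2.7.3a, RSEM 1.3.3 and hg38. The authors deposited RSEM expected counts per Ensembl gene, taken as such because 9.37% of values are not whole. The strand setting and annotation release are not given in the sources used here. The table holds 269 sample columns; 60 belong to this series and 209 were not used.

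Counts were rounded. The 57 libraries of 19 groups of 3 were fitted together with edgeR 4.0.16 (TMM, filterByExpr, glmQLFit, R 4.3.3), leaving out an extract with 1 library a dose, with 38 residual degrees of freedom and a coefficient of variation of 10.1%. Adjusted p-values are Benjamini-Hochberg over 17268 genes, with a threshold of 0.05. SE is the log2 fold over the root of F. Of 60675 identifiers 57055 had a GENCODE 29 gene on GRCh38. The steps were tested on simulated data.

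Named genes were the 12 largest rises and falls (adjusted p under 0.05, at least 5 CPM in the higher group, no overlap of libraries), up to 4 called members of each of 47 lists, a panel of 15 genes and the 5 largest differences from Banhasasim-tang in each direction. Some genes that the rule names are not reported here. Other genes named were chosen after their values were seen. Members and lists were chosen with earlier results of these data known. Replicates differed by 3.89 to 39.6 times the chi-square that counting alone gives. Abundant genes weigh most in that measure, so it does not show how large counting noise is in low genes. DESeq2 1.42.0, other scalings, filters, fits and left-out libraries were tried.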

Additional observations from a re-analysis of the deposited data

Results flagged for a closer look

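The medium-over-low change differed between Yijung-tang and Banhasasim-tang by a test of the difference itself (edgeR quasi-likelihood, contrast of the 2 changes) in 371 genes. The 5 largest differences with a higher change in Yijung-tang were FOSB 3.39, LY6K 2.58, EGR1 2.45, NR4A2 1.92 and STC2 1.46 on the log2 scale. The 5 largest with a lower change in Yijung-tang were KRT4 -1.24, DDC -1.21, ITGB6 -1.19, COL1A1 -1.14 and ITGA11 -1.14. DDC had 3.71 ± 0.372 CPM at medium and 7.05 ± 0.998 CPM at low Yijung-tang.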

How the results depend on the processing

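Of 159 genes named or followed that were called in Yijung-tang medium against low dose, 113 were called in every one of 16 alternatives, and none of the 159 changed direction. The 1090 genes called became 661 with no filter on low counts (302 higher, 359 lower), 440 with only the 6 libraries fitted, 480 with the 9 Yijung-tang libraries (an alternative chosen after seeing the data) and 2978 once the length balance was a covariate. For high against medium dose the 187 became 73 (27 higher, 46 lower), 9 (2 higher, 7 lower), 15 (4 higher, 11 lower) and 685. The 371 differences from Banhasasim-tang became 215 with no filter and 1155 with the covariate. Without 1 library at a time the counts ran from 761 to 1008 for medium against low, from 107 to 159 for high against medium, and from 279 to 396 for the difference. Fits on fewer libraries also have fewer degrees of freedom. Why the counts moved was not tested for any of these alternatives. Size factors of DESeq2's kind (1109), DESeq2 itself (1130), a robust fit (1078) and removal of mitochondrially encoded genes (1094) left the count within 1.5 times.

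The labels state no pairing by replicate number, and the main fit held no term for it. Deviations of same-numbered medium and low libraries correlated at 0.338, 0.095 and 0.104 over genes, and those of other pairs at -0.198 to 0.116. Replicate 1 of the 2 groups thus deviated alike, against -0.198 to -0.168 for replicate 1 with other numbers. Replicates 2 and 3 did not stand apart by number. With a replicate block 1089 genes were called for medium against low, 188 for high against medium and 355 for the difference. That block was 1 factor shared by all 57 libraries, so it cannot take up a pairing particular to Yijung-tang, which was not tested. Medium and low replicate 1 lay 0.428 apart (root mean square log2 difference over genes), replicates 2 0.453 and replicates 3 0.460. Distances ran from 0.439 to 0.488 within medium and from 0.371 to 0.430 within low dose.

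Among lists, ATF4-CHOP kept 13 to 14 risen, AP-1 and EGR 9 and ERK feedback 9 to 10 when single libraries were left out. Depth limits the low genes most: names below 5 CPM in the higher group were left out of the ranking of changes.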

Other observations

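Genes outside the lists moved too; those named here were chosen after their values were seen. HNF4A, a transcription factor of liver and gut epithelium, had 57.3, 57.4 and 59.5 CPM at medium and 111, 109 and 101 CPM at low dose, a log2 fold of -0.88 ± 0.07 (edgeR adjusted p = 3.66e-12). All 3 medium libraries lay well below the low ones. The receptor NOTCH3 fell by 0.86, the matrix protein CCDC80 by 0.84, SFRP4, a secreted Wnt antagonist, by 0.89, SULT2B1, a sterol sulfotransferase, by 0.82 and the water channel AQP3 by 0.94.

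GPRC5A, a retinoic acid-induced receptor of lung epithelium, had 465, 491 and 514 CPM at medium and 269.6, 267 and 255 CPM at low dose, a log2 fold of 0.89 ± 0.07. The membrane protein EMP1 rose by 1.01, the deubiquitinase STAMBPL1 by 1.03, ULBP1, a ligand of the NKG2D receptor, by 1.00, the GTPase GEM by 0.97, spermine oxidase SMOX by 0.87, IRAK2, of interleukin-1 signalling, by 0.83, HAS2, a hyaluronan synthase, by 0.83 and SOCS2, a cytokine feedback gene, by 0.80. GPRC5A differed from its change in Banhasasim-tang by 0.91 on the log2 scale and HNF4A by -0.88.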
